A study of Homo sapiens with 19 samples.

Results

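The mRNAs described here encode the core proteins of the microRNA pathway: the 4 Argonaute proteins (AGO1, AGO2, AGO3 and AGO4), the 3 TNRC6 proteins (TNRC6A, TNRC6B and TNRC6C), the nuclease DICER1, the nuclease DROSHA and the export receptor XPO5. They were chosen by name, found by gene ID, and make up 10 of the 19942 protein-coding genes in the expression and eCLIP tables. In the transcript table of the rRNA-depleted libraries, the same 10 genes were represented by 108 transcripts.

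MicroRNAs are short RNAs that guide Argonaute proteins to partly complementary mRNAs. A primary microRNA transcript is cut in the nucleus by DROSHA with its partner DGCR8, the resulting hairpin is carried to the cytoplasm by XPO5 with RAN, and DICER1 trims the hairpin to a short duplex, from which 1 strand is loaded onto an Argonaute protein. TNRC6 proteins, also called GW182 proteins, bind Argonaute and recruit deadenylases, so that the targeted mRNA is repressed and degraded. Argonaute and TNRC6 proteins are known components of P-bodies, and Argonaute proteins have also been found in stress granules (SGs), the cytoplasmic condensates of stalled mRNAs whose core proteins include G3BP1 and G3BP2.

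The data came from SH-SY5Y cells, a human neuroblastoma line, with sodium arsenite (AS) as the stress that forms SGs. eCLIP, in which UV light crosslinks RNA to the protein it touches before immunoprecipitation and sequencing, was done for G3BP1 and for G3BP2 in untreated (Ctrl) and AS-treated cells, with 2 libraries a group. RNA-seq was done after transfection of a control siRNA (siCtrl) or of siRNAs against G3BP1 (siG3BP1) or G3BP2 (siG3BP2), of the cleared lysate of AS-treated cells (Total), of the SG cores precipitated from that lysate with an antibody to G3BP1 (SG), and, after removal of rRNA, of untreated and AS-treated cells, with 1 library each. The label of the rRNA-depleted AS library gives 500 μM AS for 1 h, whereas the labels of all eCLIP, knockdown, Total and SG libraries, those of untreated cells included, carry 50 mM for 1 h, and the methods name only the former dose.

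With 1 library a group, differences in the RNA-seq libraries had no replicate check and are given as values without a test. Of 11 markers of noradrenergic neuroblastoma cells, 10 were above 10 TPM (a level scaled to transcript length and library depth) in all 5 TPM libraries, and TH was below 1 TPM in all of them. Of 5 markers of other cells, 4 were below 1 TPM in all 5 libraries, and COL1A1 was the exception. G3BP1 stood at 18.7 TPM in siCtrl and 5.996 TPM in siG3BP1, a ratio of 0.320, and G3BP2 at 38.1 TPM in siCtrl and 11.4 TPM in siG3BP2, a ratio of 0.299. The other G3BP mRNA had a ratio of 1.03 for G3BP2 in siG3BP1 and 0.883 for G3BP1 in siG3BP2. The TPM of protein-coding genes summed to between 623955 and 735927 per library, and TPM gives no depth. Fewer cells of a type and less RNA per cell cannot be told apart in bulk RNA.

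The 10 genes had long transcripts. Their canonical (MANE Select) transcripts measured between 5323 nucleotides for XPO5 and 19660 nucleotides for AGO3, with a median of 10388, against a median of 2891 over 19910 protein-coding genes. The 3′UTR took the largest part of all 4 Argonaute transcripts and of TNRC6B. The coding sequences of AGO1 to AGO4 were between 2574 and 2586 nucleotides, whereas the 3′UTR measured 10925 nucleotides in AGO1, 11888 in AGO2, 16755 in AGO3 and 4285 in AGO4. TNRC6B, with a 3′UTR of 12567 nucleotides, resembled AGO1 to AGO3 in this respect, and TNRC6A and TNRC6C had 2411 and 3977. The 3′UTR of DICER1 was 4270 nucleotides, that of XPO5 1534, and that of DROSHA 938, the only one under the median of all genes, 1022.

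On GRCh38, 3 of the Argonaute genes stand in a row on the plus strand of chromosome 1: AGO4 at chr1:35808016-35857890, AGO1 at chr1:35869808-35930532 and AGO3 at chr1:35930718-36072500. AGO4 and AGO1 are separated by 11917 bases and AGO1 and AGO3 by 185 bases. AGO2 lies on another chromosome, apart from the other 3. TNRC6A lies at chr16:24610209-24827632, TNRC6B at chr22:40044817-40335808 and TNRC6C at chr17:77958703-78108822, all on the plus strand. DICER1 (chr14:95086228-95158010), DROSHA (chr5:31400494-31532196) and XPO5 (chr6:43522334-43576038) are on the minus strand. XPO5 shares 40086 bases of its span with POLR1C on the opposite strand and TNRC6C shares 1426 bases with TMC6. The sources used here do not say whether reads were counted by strand, so reads of these overlapping pairs may not be separated.

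The study describes a palindromic sequence as the leading motif under G3BP1 peaks. In DNA letters it is CCAGCCTGG or CCAGGCTGG, each the reverse complement of the other, and both were searched for on the sense strand of the canonical transcripts. At least 1 match was present in 6 of the 10 mRNAs, against 27.99% of 19892 genes and 51.2% of the 3988 genes whose canonical transcript was at least as long as that of XPO5. The 22 matches corresponded to 1.94 per 10 kb of transcript, against 1.49 per 10 kb over all genes and 1.66 over the long ones. AGO3 held 15 of the 22, all in its 3′UTR, AGO1 held 3, and AGO2, AGO4, TNRC6B and TNRC6C held 1 each. TNRC6A, DICER1, DROSHA and XPO5 held none in these transcripts. The following 29-base stretches show matches that fall in a coding sequence, in AGO1 and TNRC6C. The match in AGO2 was not assigned to a region. Matches across an exon junction or within 10 bases of a transcript end were left out, so coding matches may be missing. The stretches are in transcript sense, GRCh38 plus strand, with the 9 letters of the motif in capitals.
AGO1 coding sequence, chr1:35917642-35917670: aaaaggactaCCAGCCTGGgatcacttat
TNRC6C coding sequence, chr17:78050820-78050848: aagatcaaatCCAGCCTGGagtgcaggag
A match of letters is a description of the transcript and not a binding site, and peak positions were not analysed here.

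XPO5 had the highest level of the 10 mRNAs in every TPM library. It stood at 50.1 TPM in siCtrl, 40.8 in siG3BP1, 40.2 in siG3BP2, 29.8 in Total and 165 in SG. DROSHA came next in the 3 siRNA libraries and in Total, at 15.6 TPM in siCtrl, 24.5 in siG3BP1, 12.8 in siG3BP2 and 12.4 in Total, and was at 63.3 TPM in SG. DICER1, which acts after both, was several times lower, at 2.75 TPM in siCtrl, 6.24 in siG3BP1, 2.35 in siG3BP2 and 1.48 in Total, and reached 94.2 TPM in SG. XPO5 alone made up 48.3% of the summed TPM of the 10 genes in siCtrl and 20.0% in SG.

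Among the Argonautes, AGO1 was highest in siCtrl, with 7.40 TPM, and measured 5.70 in siG3BP1, 2.94 in siG3BP2, 3.40 in Total and 82.3 in SG. AGO2 (chr8:140520156-140635633, minus strand), the Argonaute best known for slicing its target, stood at 6.41 TPM in siCtrl, 6.30 in siG3BP1, 3.65 in siG3BP2, 1.52 in Total and 127 in SG. AGO3 stood at 3.82, 1.75, 2.51, 0.993 and 37.0 TPM in the same order of libraries. AGO4 stood at 3.16, 3.53, 2.87, 0.911 and 31.5 TPM. The order of the 4 in siCtrl was AGO1, AGO2, AGO3 and AGO4, whereas AGO2 was the highest in siG3BP1, siG3BP2 and SG. Without replicates it is not known which neighbours in these orders differ.

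The TNRC6 mRNAs were less alike. TNRC6C stood at 6.88 TPM in siCtrl, 7.17 in siG3BP1, 5.11 in siG3BP2, 1.28 in Total and 145 in SG. TNRC6A stood at 6.24, 5.00, 3.72, 1.26 and 50.6 TPM. TNRC6B was at 1.299 TPM in siCtrl, at 0.164, 0.141 and 0.0706 TPM in siG3BP1, siG3BP2 and Total, and at 27.6 TPM in SG, the lowest of the 10 mRNAs in every library. The 10 genes together took 0.0160% of the protein-coding TPM in siCtrl, 0.0161% in siG3BP1, 0.0121% in siG3BP2, 0.00851% in Total and 0.112% in SG.

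**Figure D1:**
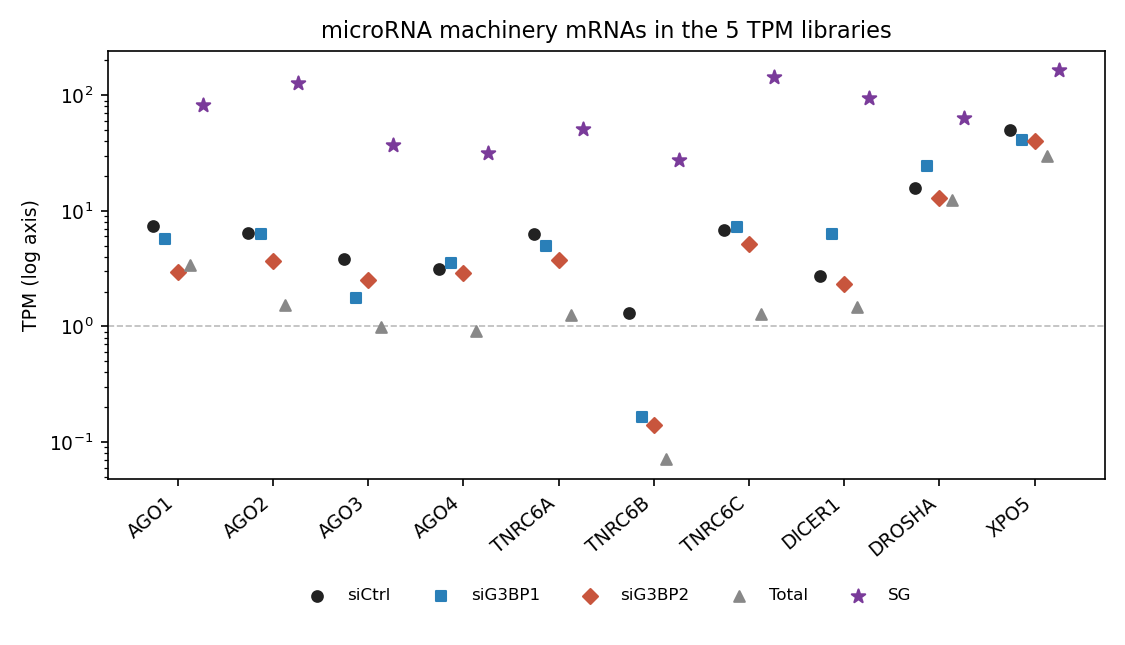
TPM (log axis) of the 10 mRNAs, 1 point per library, in siCtrl, siG3BP1, siG3BP2, Total and SG, with a dashed line at 1 TPM. For each gene the SG value lies above the other 4, from 27.6 TPM for TNRC6B to 165 TPM for XPO5, and TNRC6B is the only gene below 1 TPM in both knockdown libraries.

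The partitioning of these mRNAs between SG cores and lysate was compared by the thresholds of the study, a fold above 2 with more than 1 TPM in SG. The fold was taken here of TPM + 1, an addition that the study does not state. All 10 mRNAs met it, in a comparison in which 62.9% of the 13560 genes above 1 TPM did so and 9.45% were depleted by the converse rule. Among the 3175 genes whose canonical transcript was at least as long as the shortest of the 10, a group set after the data were seen, the share was 93.3%. The call itself therefore did not separate the list from other long mRNAs. When the median ratio of all genes was set to 1, 35.3% of genes were called enriched and 25.6% depleted, and 8 of the 10 mRNAs were called, without DROSHA and XPO5.

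The size of the fold differed along the list. TNRC6C had a fold of TPM + 1 of 64.0 (log2 6.001), which ranked 58 among the 13560 genes. AGO2 followed with a fold of 50.6 (log2 5.66) and DICER1 with 38.3 (log2 5.26), at ranks 125 and 226. TNRC6B, TNRC6A, AGO3, AGO1 and AGO4 had folds of 26.7, 22.8, 19.1, 18.9 and 17.0, all above the 92nd percentile of genes. XPO5 and DROSHA were the lowest, with folds of 5.38 (log2 2.43) and 4.80 (log2 2.26), at percentiles of 69.0 and 65.8. The median log2 fold of the list was 4.38, and that of all genes 1.51. All 4 Argonautes, all 3 TNRC6 mRNAs and DICER1 were thus above a fold of 16, and DROSHA and XPO5 were below 6. The sizes and the order of the high folds depended on the added 1 TPM, and 3 of the 10 Total values were below 1 TPM. Without it, an alternative chosen after the data were seen, all 10 were again called. Over all genes 8947 were then enriched and 1379 depleted, against 8528 and 1282. TNRC6B was highest with a ratio of SG to Total of 391, on a Total value of 0.0706 TPM. TNRC6C followed with 113, AGO2 with 83.3 and DICER1 with 63.5, TNRC6A, AGO3, AGO4 and AGO1 lay between 40.2 and 24.2, and XPO5 and DROSHA stayed lowest, at 5.53 and 5.11.

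Across 13548 genes the log2 fold had a Spearman rho of 0.696 with the length of the canonical transcript, 0.509 with the length of its 3′UTR and −0.569 with the level in Total. These genes are points of 1 pair of libraries, and the Total level enters the fold itself. Over the 10 mRNAs alone the corresponding rho was 0.576, 0.382 and −0.345. AGO3 has the longest transcript of the 10 and ranked 6 of 10 by fold, whereas TNRC6C, with 10391 nucleotides, ranked first. Without the added 1 TPM the first was TNRC6B, whose transcript of 18280 nucleotides is the second longest. XPO5 and DROSHA were the shortest of the list and had the lowest folds.

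**Figure D2:**
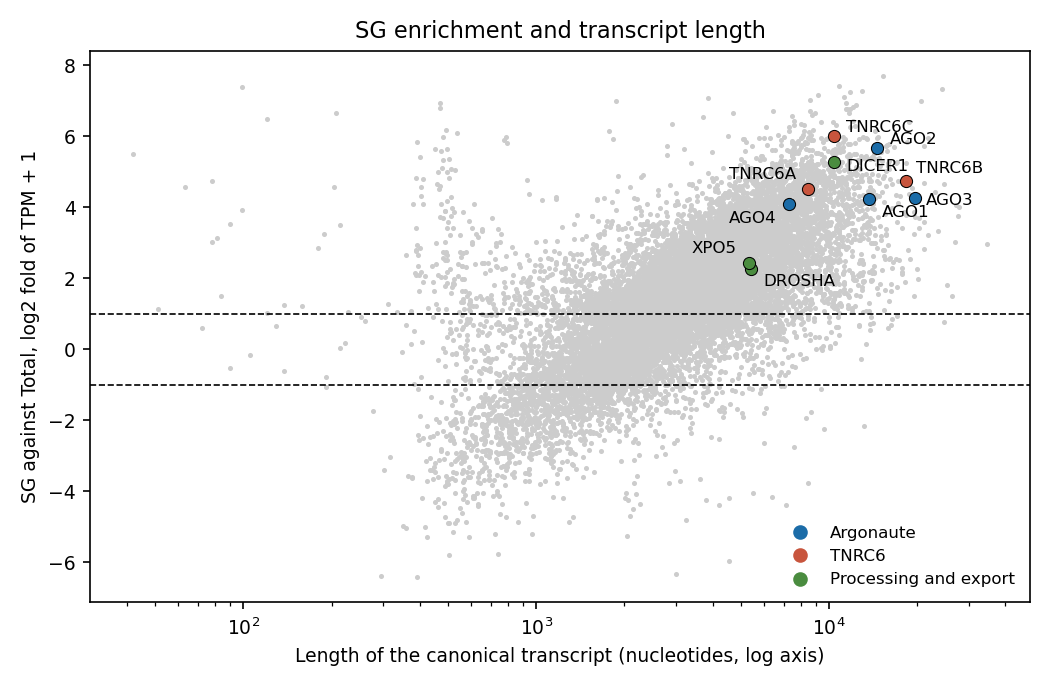
SG enrichment (log2 fold of TPM + 1, SG against Total) against canonical transcript length (nucleotides, log axis) for 13548 genes in grey and the 10 mRNAs in colour by family, with dashed lines at folds of 2 and 0.5. All 10 lie above the upper line, DROSHA (2.26) and XPO5 (2.43) lowest and TNRC6C (6.001) highest.

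The Total library was also set against siCtrl. By the methods, the pair differs in AS, siRNA transfection and lysis together, although the labels of both carry the same AS entry. The knockdown libraries were selected for poly-A RNA, and the methods name no selection for Total. These differences cannot be told apart. Of the 10 mRNAs, 7 had a ratio below 0.5 with more than 1 TPM in the higher library, in a comparison in which 27.2% of 12173 genes did so and 2.37% had a ratio above 2. These were the 4 Argonautes and the 3 TNRC6 mRNAs. The ratio was 0.460 for AGO1, 0.237 for AGO2, 0.260 for AGO3 and 0.288 for AGO4, and 0.202 for TNRC6A, 0.0544 for TNRC6B and 0.186 for TNRC6C. DICER1, XPO5 and DROSHA had ratios of 0.540, 0.595 and 0.792. The median ratio over all genes was 0.750, and only DROSHA lay above it. With that median set to 1, 5.53% of genes were called higher and 15.9% lower, and 6 of the 10 mRNAs were called, all lower, without AGO1. With 1 TPM added to each value 6 were called as well, again without AGO1. Over all genes this gave 156 higher and 2387 lower, against 288 and 3311. The log2 ratio of TNRC6B was then −1.10 in place of −4.20. Total is the denominator of the SG comparison as well, so the low Total values of AGO and TNRC6 mRNAs enter both.

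Loss of G3BP1 and of G3BP2 was compared next, by the ratio of TPM to siCtrl, called above 2 or below 0.5 with more than 1 TPM in the higher library. In siG3BP1, DICER1 was higher, with 6.24 against 2.75 TPM, a ratio of 2.27 and rank 247 of 12280 genes. Over all genes, 2.53% were called higher and 3.69% lower. AGO3, with 1.75 against 3.82 TPM (ratio 0.459), and TNRC6B, with 0.164 against 1.299 TPM (ratio 0.126), were called lower. The TNRC6B value in siG3BP1 was under 1 TPM. None of these 3 mRNAs was called when 1 TPM was added to each value, which gave log2 folds of 0.95 for DICER1, −0.81 for AGO3 and −0.98 for TNRC6B. DROSHA had a ratio of 1.57 at percentile 95.2 of all genes, and the remaining 6 lay between 0.771 for AGO1 and 1.12 for AGO4.

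In siG3BP2 all 10 mRNAs had a ratio below 1, and all were below the median ratio of all genes, 0.919. AGO1, with 2.94 against 7.40 TPM (ratio 0.397), and TNRC6B, with 0.141 against 1.299 TPM (ratio 0.109), were called lower, and none of the 10 was called higher, while 5.62% of 12229 genes were called lower and 2.43% higher. The other ratios were 0.570 for AGO2, 0.597 for TNRC6A, 0.658 for AGO3, 0.742 for TNRC6C, 0.803 for XPO5, 0.819 for DROSHA, 0.855 for DICER1 and 0.908 for AGO4. The median log2 ratio of the list was −0.52, against −0.13 over all genes. In siG3BP1 the list had a median log2 ratio of −0.16, against −0.09 over all genes, with 4 mRNAs above 1 and 6 below. Both comparisons use the same siCtrl library, so a low or high siCtrl value enters both, as for TNRC6B.

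The knockdown libraries were therefore also set against each other, without siCtrl. DICER1 was at 2.35 TPM in siG3BP2 and 6.24 TPM in siG3BP1, a ratio of 0.376, and was the only one of the 10 called, in a comparison in which 3.92% of 12179 genes were called lower and 2.43% higher. AGO1 (0.516), DROSHA (0.523) and AGO2 (0.579) lay near the threshold of 0.5 without passing it. AGO3 was the only mRNA higher in siG3BP2, with a ratio of 1.43, and XPO5 had a ratio of 0.985. TNRC6B was below 1 TPM in both libraries and was left out by the filter, so 9 of the 10 entered.

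**Figure D3:**
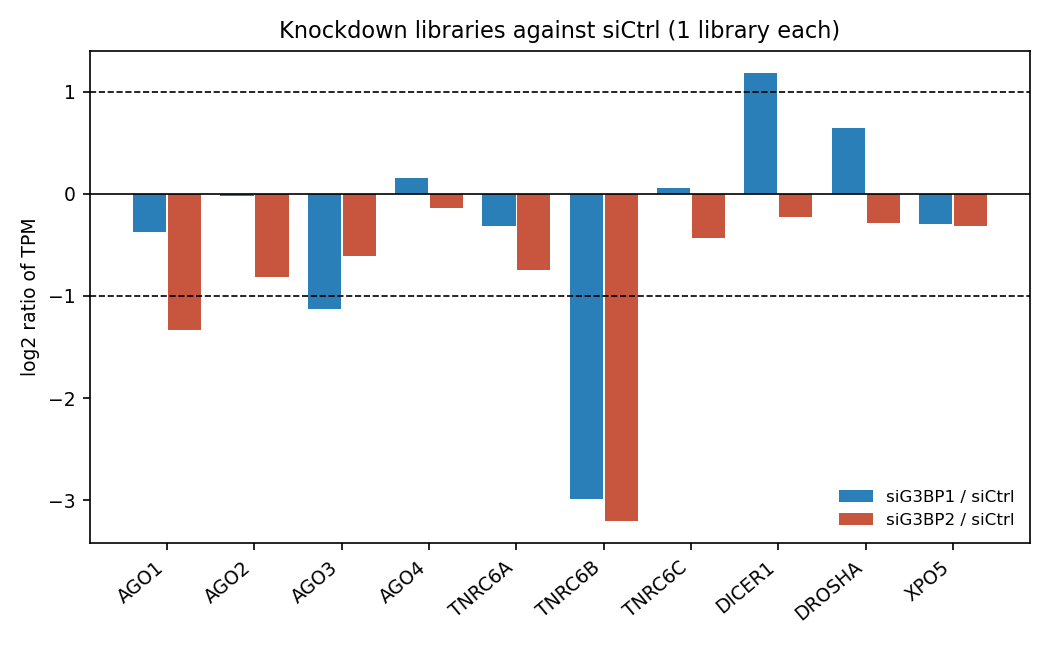
log2 ratio of TPM of the 10 mRNAs in siG3BP1 and in siG3BP2 against the same siCtrl library (1 library each, bars from 0), with dashed lines at ratios of 2 and 0.5. TNRC6B is far below the lower line in both (ratios 0.126 and 0.109), DICER1 is above the upper line in siG3BP1 only, and all siG3BP2 bars point down.

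The effect of AS on whole-cell RNA was read from the rRNA-depleted pair. The deposited values per transcript are RPKM, reads scaled to transcript length and library depth, in which reads on shared exons count for each transcript, so 1 transcript of each gene, the canonical one where listed, is used below, an alternative chosen after the data were seen. The reads behind it were recovered from the values, out of 13291958 reads in the untreated and 11281587 in the AS library, and the 95% exact intervals of the ratio cover counting error only. By the sums over all transcripts of a gene, none of the 10 passed a ratio of 2 or 0.5, while 7.66% of 12683 genes were called higher and 1.41% lower, or 4.22% and 2.102% with the median ratio set to 1.

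DICER1 had 6.69 RPKM (923 reads) in untreated and 8.62 RPKM (1010 reads) in AS-treated cells, a ratio of 1.29 (interval 1.18 to 1.41). XPO5 had 12.2 and 13.5 RPKM, a ratio of 1.11 (1.01 to 1.22). DROSHA had 11.3 and 12.7 RPKM, a ratio of 1.12 (1.01 to 1.24). All 3 intervals lie above 1, as did those of 53.8% of 9737 genes, and hold 1.22, the median ratio of 10106 genes, so none of the 3 stood apart from the shift shared by most genes in this pair.

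AGO2 had 8.54 RPKM (1656 reads) in untreated and 7.91 RPKM (1302 reads) in AS-treated cells, a ratio of 0.926 (0.861 to 0.997), at the 6.07th percentile of genes. AGO1 had 4.87 and 5.20 RPKM, a ratio of 1.07 (0.968 to 1.17), and AGO3 3.47 and 3.99 RPKM, a ratio of 1.15 (1.05 to 1.26). AGO4 was lower in level, with 1.997 and 2.54 RPKM (193 and 208 reads), and had a ratio of 1.27 (1.04 to 1.55), whereas its sum over 3 transcripts gave 0.933. AGO2 was the only one of the 10 whose interval lay below 1, as did 1.94% of 9737 genes.

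TNRC6B had 3.24 and 3.16 RPKM (787 and 652 reads), a ratio of 0.976 (0.879 to 1.08). TNRC6C had 10.5 and 11.0 RPKM, a ratio of 1.04 (0.953 to 1.14), on a transcript of 7093 nucleotides since its canonical one is not in the table. TNRC6A had only 0.842 and 0.919 RPKM (95 and 88 reads) and a ratio of 1.09 with the widest interval, 0.807 to 1.47. Relative to the median ratio of 1.22, the intervals of AGO1, AGO2, TNRC6B and TNRC6C lay below it, the other 6 held it, and none lay above. Of 9737 genes above 1 RPKM in both libraries with recovered reads, 14.8% had an interval below the median ratio and 15.1% above it. An interval narrows with the number of reads, which differed among these genes.

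**Figure D4:**
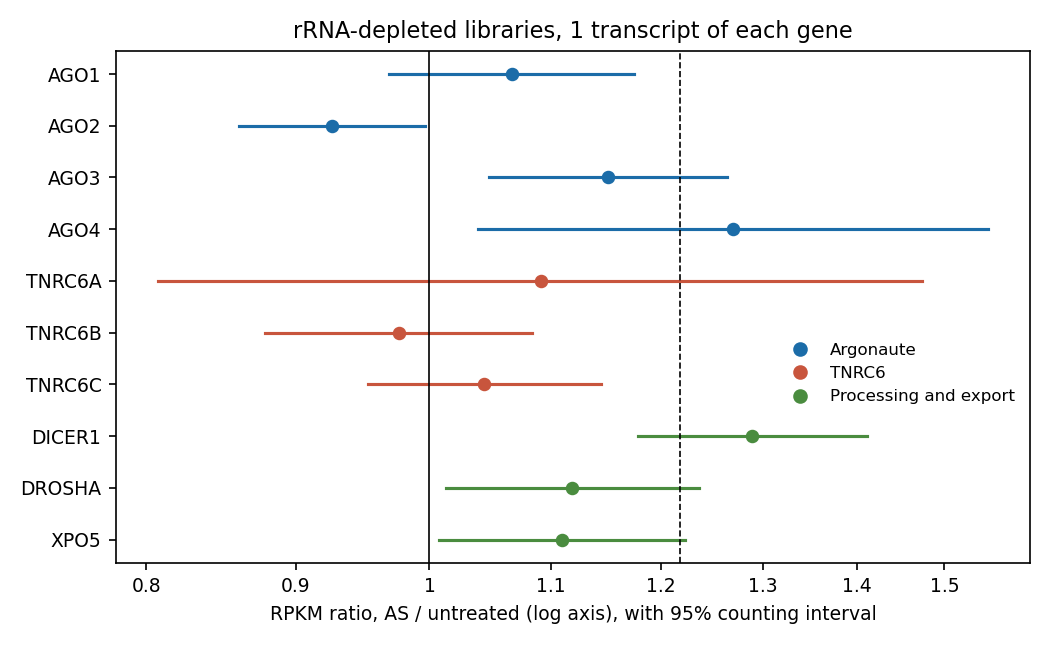
Ratio of RPKM in AS-treated to untreated cells (log axis) for 1 transcript of each gene in the rRNA-depleted libraries, with 95% exact intervals of counting error as bars, a solid line at 1 and a dashed line at the median ratio of 10106 genes (1.22). AGO2, at 0.926, is the only mRNA whose interval is below 1, and the intervals of AGO1, AGO2, TNRC6B and TNRC6C end left of the dashed line.

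Of the 108 transcripts of the 10 genes, 87 were above 1 RPKM in at least 1 of the libraries, 6 of these had a ratio above 2 and 4 a ratio below 0.5, against 6.84% and 2.01% of 100705 transcripts. The canonical transcript was not the one with the highest RPKM in untreated cells in 9 of the 10 genes, TNRC6C being the exception with the transcript used for it. For AGO4 the canonical transcript was highest in AS-treated cells, at 2.54 RPKM against 2.38 for the next. In untreated cells the 3996-nucleotide AGO1 transcript ENST00000373206.5 had 7.25 RPKM against 4.87 for the 13712-nucleotide canonical form. The 3141-nucleotide AGO2 transcript ENST00000519980.5 had 10.4 RPKM against 8.54, and the 1035-nucleotide AGO3 transcript ENST00000397828.3 had 6.54 RPKM against 3.47. These shorter protein-coding Argonaute forms thus held more reads per base than the long ones. In AS-treated cells the same pairs had 7.48 and 5.20 RPKM for AGO1, 9.14 and 7.91 for AGO2, and 8.91 and 3.99 for AGO3, in the same order. Reads on shared exons enter both forms of a pair, so these values do not give the share of each form.

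The G3BP1 and G3BP2 eCLIP signal per gene was read from the eCLIP table. For every gene and library the table holds log10(n + 1) with n a whole number. Of the 19942 genes, between 936 and 2591 had an n of 0 in a library. The paper reports peaks in only a minority of protein-coding genes in untreated cells. In those cells n was thus not limited to genes with a reported peak, and it is not read here as binding alone. The sources used here do not tell whether n was corrected for the input. The numbers summed to between 4268911 and 26179736 per library, with the second library of each group smaller, so each was divided by its library total and scaled to a common total, giving the per-million eCLIP value used below. All 80 values of the 10 genes, in 8 libraries, were above 0.

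TNRC6C had the highest per-million eCLIP values of the list. With G3BP1 they were 135 and 144 before and 149 and 158 after AS, and with G3BP2 they were 132 and 138 before and 136 and 124 after AS. For DICER1 the G3BP1 values were 79.4 and 114 before and 108 and 112 after AS, and the G3BP2 values 85.5 and 95.7 before and 96.3 and 92.2 after AS. For AGO3 the G3BP1 values were 97.7 and 102 before and 85.9 and 112 after AS, and the G3BP2 values 78.0 and 72.6 before and 82.0 and 103 after AS. The spread between duplicates was as wide as that between treatments for DICER1 and for AGO3 with G3BP1, whereas both AS values of AGO3 with G3BP2 were above both untreated ones.

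Over the 8 libraries, the per-million eCLIP value of TNRC6B lay between 79.6 and 120 (median 91.1), that of AGO2 between 56.7 and 78.5 (71.3) and that of DROSHA between 46.1 and 84.8 (60.9). TNRC6A lay between 21.6 and 35.4 (33.7) and AGO1 between 17.9 and 45.8 (32.5). XPO5, the mRNA with the highest TPM, lay between 12.3 and 28.6 (16.8), and AGO4 was lowest, between 6.65 and 10.2 (8.11). The median over all genes was between 11.2 and 12.003 in each library.

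Per-million values are adjusted neither for gene length nor for RNA level. Per kilobase of gene span, introns included, the order changed. The division by span leaves RNA level unadjusted, lowers the value of genes with long introns, and was made without the input libraries. The percentiles below are therefore not a measure of relative binding. DICER1 had a median per-million eCLIP value of 1.34 per kilobase, at the 91.9th percentile of 19910 genes, and TNRC6C 0.914, at the 82.4th percentile. AGO3 (0.648), AGO2 (0.617), AGO1 (0.535) and DROSHA (0.463) also lay above the median of all genes, which was 0.389 to 0.416. XPO5 (0.314) and TNRC6B (0.313) lay below it, and AGO4 (0.163) and TNRC6A (0.155) were lowest, at percentiles of 22.8 and 18.6. AGO3, which holds the 15 motif matches, was at the 69.5th percentile, and DICER1, which holds none in its canonical transcript, was the highest. Matches were counted in spliced transcripts and eCLIP values over gene spans with introns, and a relation between them was not tested.

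The change after AS was tested for each protein with limma, fitted to all genes and adjusted by Benjamini-Hochberg. None of the 10 genes was called for G3BP1 or for G3BP2, nor for the difference between the proteins or for the interaction of protein and treatment, and the share of all genes called was 0% in each. At an unadjusted p under 0.05, again 0 of the 10 were counted in any of the 4 tests with all libraries, while for G3BP1 274 genes were higher (1.45%) and 267 lower (1.41%) of 18888, and for G3BP2 355 were higher (1.86%) and 341 lower (1.79%) of 19035. For the proteins, 188 genes were higher with G3BP2 (0.995%) and 164 lower (0.868%), and for the interaction 82 (0.434%) and 86 (0.455%), of 18898. In each test these shares are below the one that a p under 0.05 gives when no gene changes. The limma p-values are thus conservative here, and 0 of the 10 does not show an absence of change. Leaving out single libraries brought some of the 10 under that unadjusted p in some fits. Such fits leave 1 library in a group, and no genes are named from them. The adjusted p by limma was 0.996 for each of the 10 genes in both AS comparisons. The intervals bound what could have been missed. For TNRC6C the fold with AS (of the per-million value + 1) was 1.103 (95% interval 0.858 to 1.42) with G3BP1 and 0.962 (0.781 to 1.18) with G3BP2, and for DICER1 1.15 (0.787 to 1.69) and 1.04 (0.823 to 1.32). For AGO1 it was 0.932 (0.482 to 1.80) and 0.746 (0.343 to 1.62), and changes up to these bounds were not excluded by 2 libraries a group.

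Both AS libraries lay above both untreated ones for TNRC6C with G3BP1 and for AGO3 with G3BP2, and below them for AGO4 with G3BP2, where the values were 10.2 and 8.24 before and 7.98 and 6.65 after AS. With G3BP1, 13.3% of genes lay wholly above and 14.5% wholly below, and with G3BP2 14.7% and 15.6%, or 27.8% and 30.3% in either direction. The 1 of the 10 genes with G3BP1 and the 2 of 10 with G3BP2 did not exceed these shares. With G3BP2 against G3BP1, over all 8 libraries, the fold lay between 0.764 for XPO5 (0.516 to 1.13) and 1.27 for TNRC6A (0.953 to 1.69). For TNRC6A the G3BP1 values were 35.4 and 21.6 before and 29.8 and 22.02 after AS, and the G3BP2 values 33.2 and 34.7 before and 34.1 and 34.2 after AS.

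**Figure D5:**
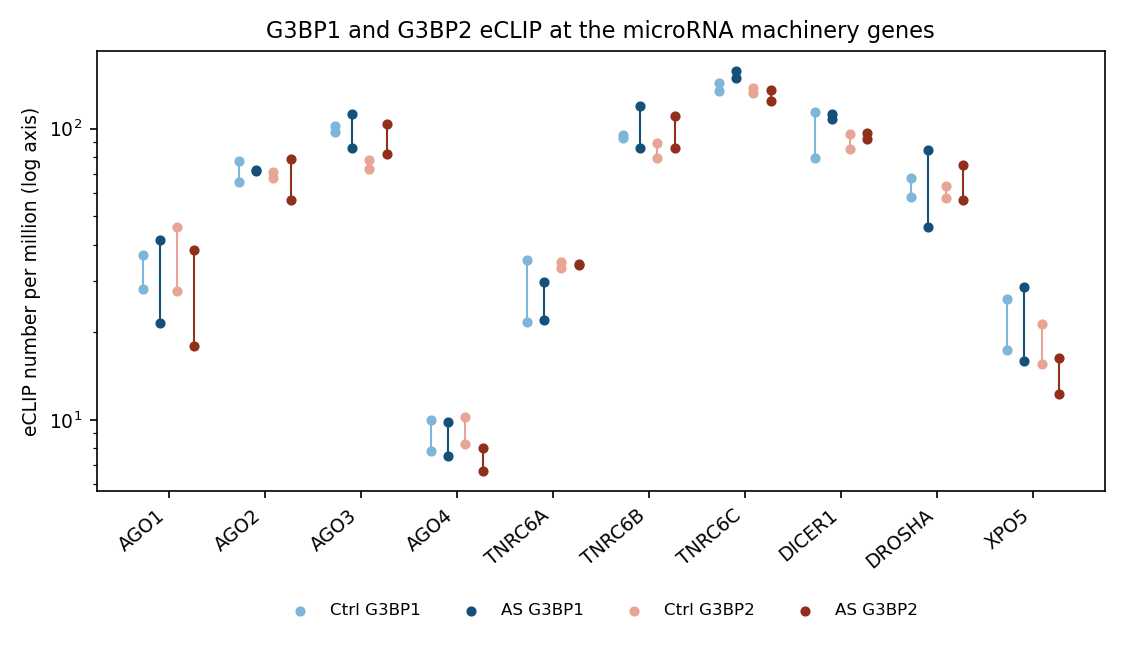
Per-million eCLIP value (number scaled to the library total, log axis) for the 10 genes, with each of the 2 libraries of a group as a point and a line between them, for G3BP1 (blue) and G3BP2 (red) in untreated (light) and AS-treated (dark) cells. TNRC6C is highest, between 124 and 158, AGO4 lowest, between 6.65 and 10.2, and light and dark points overlap for most genes.

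The wider microRNA pathway was followed in a list of 36 other genes. In siG3BP1, 34 were above 1 TPM in at least 1 library. LIN28B, which blocks the maturation of let-7 microRNAs, was called higher (1.398 against 0.630 TPM, ratio 2.22), and PAN3, a subunit of the deadenylase that TNRC6 recruits, was called lower (0.826 against 2.28 TPM, ratio 0.362), against 2.53% and 3.69% of all genes. Both were near the filter of 1 TPM, and neither was called with 1 TPM added to each value, which gave ratios of 1.47 and 0.556. TUT7 and TUT4, which uridylate microRNA precursors, had ratios of 1.41 and 0.735. In siG3BP2 none of 33 was called, and the outermost ratios were 1.39 for the chaperone HSP90AA1, 1.296 for the helicase MOV10, 0.656 for DIS3L2 and 0.576 for the chaperone HSPA8. Between the knockdowns LIN28B and PAN3 were called, with a ratio of siG3BP2 to siG3BP1 of 0.405 and 2.27, against 3.92% of all genes lower and 2.43% higher, and again neither was called with 1 TPM added (0.653 and 1.57). TUT4 had a ratio of 1.39 and HSPA8 of 0.579.

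In SG against Total, 24 of 35 genes of the wider list were called enriched and 1 depleted, against 62.9% and 9.45% of all genes, with a median log2 fold of 1.58 against 1.51. With the median ratio of all genes set to 1, 14 of 34 were called enriched and 6 depleted, against 35.3% and 25.6%. DIS3L2, an exonuclease that degrades uridylated let-7 precursors, had a fold of TPM + 1 of 37.9, and CNOT1, the scaffold of the CCR4-NOT deadenylase, of 29.8. At the other end stood PTGES3, an HSP90 cochaperone, with a fold of 0.404, and RAN, the partner of XPO5, with 0.551, which was not called. DGCR8, the partner of DROSHA, had a fold of 12.1, above that of DROSHA itself. In Total against siCtrl 8 of 33 were called lower and 1 higher, against 27.2% and 2.37% of all genes, or 5 and 2 with the median ratio set to 1. DIS3L2 (ratio 0.105), PAN3 (0.161) and DGCR8 (0.260) were among the lower ones, and HSP90AA1 was the higher one (2.28), followed by TUT7 at 1.78. In the rRNA-depleted pair, 1 of 34 was called, LIN28B, with a ratio of 2.03 of the summed RPKM, against 7.66% of all genes called higher. It was not called with 1 added to each value (1.87), with the median ratio set to 1 (1.67) or by 1 transcript of the gene (1.86). TUT7 (1.79), DIS3L2 (0.828) and DGCR8 (0.820) were the others at the ends.

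The gene most like each mRNA over the 5 TPM libraries was taken by the Euclidean distance of log2(TPM + 1). For TNRC6C it was another gene of the list, AGO2, at a distance of 0.497. For AGO2 it was NSD1, a histone methyltransferase, at 0.395, and for AGO1 PIK3R1, a regulatory subunit of phosphoinositide 3-kinase, at 0.405. DICER1 was nearest to STAG2, a cohesin subunit, at 0.518, with 3.02, 6.30, 2.34, 2.19 and 73.4 TPM in siCtrl, siG3BP1, siG3BP2, Total and SG. XPO5 was nearest to CORO1C, an actin-binding protein, at 0.215. AGO3, AGO4, TNRC6A, TNRC6B and DROSHA were nearest to RNF169, SOAT1, ZNF609, ZNF66 and FBXL7, at distances from 0.266 to 0.329. ZNF66, like TNRC6B, was above 1 TPM in siCtrl (1.27) and SG (22.004) but at 0.113, 0.105 and 0.0375 TPM in siG3BP1, siG3BP2 and Total.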

How the data were processed

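The authors aligned RNA-seq reads to GRCh38.p13 with HISAT2 2.1.0, and the TPM per gene of the siRNA, Total and SG libraries, computed with StringTie, were deposited. For the rRNA-depleted libraries the methods name trimming with fastp, alignment and TPM from StringTie. The deposited values per transcript are RPKM, although their header calls them TPM, since each value times the transcript length is a whole multiple of 1 step, to within 0.05. This held for 100% and 99.9993% of the transcripts above 0 whose version matched the annotation. These values are thus not the TPM that the methods name, and the step that gave them is not known here. For eCLIP the authors removed duplicate molecules, aligned with STAR, called peaks and used a size-matched input, and the deposited values are log10 of a whole number plus 1.

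Gene models came from GENCODE release 44 (GRCh38), another release than the authors' on the same build, in which 19910 of 19942 genes and 91.1% of transcripts were found. RNA-seq values were compared as ratios. eCLIP numbers scaled to the library total (per-million values) were compared with limma 3.58.1 (R 4.3.3) on log10 of the value plus 1, with an intensity trend and a threshold of 0.05 on the adjusted p. Genes above 0 in fewer than 2 of 4, or 4 of 8, compared libraries were left out. Tested on simulated data for the G3BP1 comparison, limma called 195 of 200 genes changed by 0.5 (log10) among 19084, with 9 unchanged genes. The simulated libraries varied independently, without the shared replicate differences of the real ones, and no smaller change was tried. The simulation therefore does not give the power for smaller changes in the real libraries. Other steps used Python 3.11.15 (pandas 2.3.3, numpy 2.4.6, matplotlib 3.10.9, scipy 1.17.1). The 10 genes, the list of 36 genes and the markers were chosen with earlier results of these data known. Named beside the 10 are G3BP1, G3BP2, genes of the list with the 2 largest or smallest folds per comparison, and the nearest gene by TPM. DGCR8 in SG and Total was added for its role, after its values were seen. Labels name separate eCLIP replicates but not separate cultures, so p-values measure the spread between libraries. The 4 input samples were not used here. The stretches around motif matches in 3′UTRs are not reported here.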

Additional observations from a re-analysis of the deposited data

How the results depend on the processing

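TPM tables carry no depth, and with 1 library a group none of the RNA-seq ratios has a replicate check. With 1 TPM added to each value, 0 of the 10 mRNAs were called in siG3BP1, against 3, and over all genes 138 were higher and 243 lower, against 311 and 453. In siG3BP2 the same change gave 150 and 353 genes, against 297 and 687. With a threshold of 1.5, 5 of the 10 were called in siG3BP2, against 2, and 4 between the knockdowns, against 1. Over all genes this threshold gave 684 higher and 1088 lower in siG3BP1, 604 and 1648 in siG3BP2, and 652 and 1007 between them. Of the alternative counts of the 10 genes called, 64 stayed within 1.5 times the reported one and the 3 above did not. Among the counts that stayed, 40 came from eCLIP fits, in which 0 of the 10 were called in any setting. Of the counts of the wider list 16 stayed and 11 did not. Of 270 alternative RNA-seq ratios of the 10 mRNAs, 44 changed their call or moved by over 1.5 times, and 12 crossed 1, none of them called. Among these was AGO4 in the rRNA-depleted pair, with a log2 ratio of −0.10 by the sum over transcripts and 0.34 by 1 transcript.

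The eCLIP labels share replicate numbers without saying what a number stands for. Differences between libraries 1 and 2 correlated between the proteins at 0.581 in untreated and 0.497 in AS-treated cells. Across treatments the correlations were 0.110 to 0.177. The second library was the smaller in each group. The replicate block below used 1 term for both treatments, so a pairing within each treatment was not fitted. With a replicate block, 0 of the 10 genes were called in each of the 4 tests, as without it. At an unadjusted p under 0.05 the block gave 763 genes for G3BP1, 779 for G3BP2, 653 between proteins and 250 for the interaction, against 541, 696, 352 and 168. Leaving out each library in turn gave 0 of the 10 at the adjusted threshold in every test, with the lone library of a group assumed to vary like the others. On the log10 values as deposited, with a pseudocount of 0.1 in place of 1 and with genes above 0 in all libraries, 0 of the 10 were called, and the lowest adjusted p of any of the 10 by limma over all alternatives was 0.690.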

Other observations

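TNRC6A and TNRC6B changed places between the kinds of library. In the knockdown control library TNRC6A stood at 6.24 TPM and TNRC6B at 1.299 TPM, whereas in the rRNA-depleted untreated library the canonical transcripts stood at 0.842 RPKM for TNRC6A and 3.24 RPKM for TNRC6B. The tables differ in selection of RNA, unit and counting, and the values were not tested against each other. AGO3 retained-intron transcript ENST00000491443.2 had the highest RPKM of the 7 AGO3 transcripts, 7.96 in untreated and 12.5 in AS-treated cells (58 and 77 reads). Its ratio was 1.56 (95% exact interval 1.098 to 2.24, counting error only), against 1.15 (1.05 to 1.26) for the canonical form. The wider interval holds both the canonical ratio and the median ratio over genes, 1.22, so the values do not set this transcript apart from either.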
